A study of Mus musculus with 4 samples.

Results

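Peaks of chromatin accessibility were followed at 6 mouse genes, Rasgef1b, Atp1b3, Osbpl8, Flrt3, Psap and Trappc6b, in macrophages with and without conditional deletion of the histone H3.3 genes. They are 6 of the 21951 protein-coding genes of the GENCODE vM21 annotation of mm10. The genes were selected on these same libraries, because peaks present only in the H3.3-deficient cells lay in or next to them, so the presence and the length of such peaks there is a description and was not tested. Around each gene, every deposited peak that overlapped the gene body or its 20-kb flanks was listed. By count the word run fits Osbpl8, Rasgef1b and Atp1b3, with 19, 14 and 9 such regions. Flrt3 had 2, and Psap and Trappc6b had 1 each. The 3 larger counts moved with the libraries and the peaks used. They were 33, 24 and 21 without cKO replicate 1, and 4, 5 and 3 when each list was limited to peaks above its median area.

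ATAC-seq, in which the Tn5 transposase inserts sequencing adapters into accessible DNA, was carried out on bone marrow-derived macrophages (BMDMs), cells grown from bone marrow in a DMEM-based medium with 10% FBS and 20% L929-conditioned medium, for 6 to 8 days by the labels, with day 7 named for ATAC-seq in the paper's text. The mice were on the C57BL/6 background and 8 to 10 weeks old. WT mice carried floxed alleles of both H3.3 genes, H3f3a and H3f3b, and no Cre, and H3.3cKO mice (labelled KO, here cKO) carried the same floxed alleles together with LysM-Cre on both copies of Lyz2, which deletes them in myeloid cells. Each genotype had 2 libraries, named biological replicates 1 and 2. Loss of H3.3, presence of Cre and insertion into Lyz2 differed together between the groups and cannot be told apart here. Deletion of H3f3b varied between cKO samples of the study, complete in some and partial in others, and its extent in these libraries is not given in the sources used here. Biological replicates were tied to separate mice for another assay of the study but not for these libraries by name, so the spread between them may be partly technical.

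The 4 peak lists held 51955 to 64939 peaks, called in each library on its own, and the number of reads behind them is unknown. Each peak is described by its width and by its area, the sum of the peak caller's significance signal over its length, given as a percentile within its own list, since areas depend on depth. Overlapping peaks of any list, with 1 bp enough, formed 71243 union regions. A gained region had a peak in both cKO libraries and in neither WT library (2653 regions, 3.72% of all), a lost region the reverse (5164, 7.25%), and a shared region had peaks in all 4 libraries (44820, 62.9%). Widths and gained lengths are those of the union regions, and so include bases called in 1 cKO library alone. Accessibility in bulk cells does not separate fewer open cells from a weaker signal per cell. The starts of all 8 macrophage markers examined had a peak in all 4 libraries, whereas none of 3 T-cell or 3 B-cell markers had one in any. Among neutrophil markers, S100a8 had a peak in all 4 libraries, Ly6g in the cKO libraries alone and Elane in none, and among fibroblast markers Col1a1 had one in all 4 and Col1a2 and Pdgfra had none. The part of other cells in the results below was not tested. At the targeted genes, a region over the floxed exon of H3f3a (chr1:180811715-180812055) was called at percentiles 5.02 and 19.1 in WT and in neither cKO library. Regions at H3f3b were called in every library. The one at chr11:116023771-116024892 was at 94.2 and 95.5 in WT, against 87.0 and 81.4 in the cKO libraries. The one at chr11:116027762-116028173 was at 23.7 and 34.3 in WT, against 28.7 and 42.5 in the cKO libraries.

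H3.3 is the histone H3 variant that is placed into chromatin outside of DNA replication, and it is enriched over active promoters, enhancers and the bodies of transcribed genes. Accessible DNA usually forms narrow peaks at promoters and enhancers, where transcription factors displace nucleosomes, and the body of a gene is ordinarily less open than its start. The 6 genes have unrelated roles. Rasgef1b encodes a guanine nucleotide exchange factor for Ras-family proteins and is induced by Toll-like receptor signals in macrophages. Atp1b3 encodes a beta subunit of the sodium pump, Osbpl8 a lipid transfer protein at contacts of the endoplasmic reticulum with the plasma membrane, Flrt3 a transmembrane protein that binds Unc5 and latrophilin receptors, Psap the precursor of the saposins that activate lysosomal lipid hydrolases, and Trappc6b a subunit of the TRAPP vesicle-tethering complex.

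For each gene, 201 bp of reference sequence around the summit of one gained region are shown, because the regions lie outside of promoters and their sequence is not otherwise visible in a peak list. For each gene the region was the one of highest mean percentile in cKO whose window around the summit in cKO replicate 2 held no exon base of any annotated transcript. The sequences are from the RefSeq GRCm38.p6 assembly, which is mm10, on the plus strand from 5′ to 3′. Capitals mark the only match among the 5 motifs searched, the PU.1 motif GAGGAAGT.
Rasgef1b, chr5:99216898-99217098: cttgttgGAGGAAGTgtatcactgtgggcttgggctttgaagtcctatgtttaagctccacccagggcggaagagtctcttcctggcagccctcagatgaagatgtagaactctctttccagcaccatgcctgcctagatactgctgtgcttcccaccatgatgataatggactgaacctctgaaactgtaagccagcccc
Atp1b3, chr9:96330373-96330573: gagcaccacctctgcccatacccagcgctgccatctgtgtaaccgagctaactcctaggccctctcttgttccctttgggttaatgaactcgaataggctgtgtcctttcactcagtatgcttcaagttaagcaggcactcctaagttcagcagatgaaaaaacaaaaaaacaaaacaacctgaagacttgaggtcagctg
Osbpl8, chr10:111196306-111196506: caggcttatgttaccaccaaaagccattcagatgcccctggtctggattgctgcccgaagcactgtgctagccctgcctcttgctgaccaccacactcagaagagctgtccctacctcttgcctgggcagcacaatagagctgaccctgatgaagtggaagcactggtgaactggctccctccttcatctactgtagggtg
Flrt3, chr2:140657661-140657861: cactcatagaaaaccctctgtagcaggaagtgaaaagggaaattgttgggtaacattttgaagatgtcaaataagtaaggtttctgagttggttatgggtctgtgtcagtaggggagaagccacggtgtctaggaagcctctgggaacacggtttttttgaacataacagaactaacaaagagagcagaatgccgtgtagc
Psap, chr10:60300987-60301187: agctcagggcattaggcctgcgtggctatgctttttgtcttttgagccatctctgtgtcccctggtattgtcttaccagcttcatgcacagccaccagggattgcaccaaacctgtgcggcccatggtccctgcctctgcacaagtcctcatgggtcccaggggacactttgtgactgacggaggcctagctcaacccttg
Trappc6b, chr12:59040630-59040830: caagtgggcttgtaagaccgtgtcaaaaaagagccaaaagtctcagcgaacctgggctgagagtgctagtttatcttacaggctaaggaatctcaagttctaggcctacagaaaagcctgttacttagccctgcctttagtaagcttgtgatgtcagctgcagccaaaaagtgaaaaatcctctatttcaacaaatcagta
The Rasgef1b, Atp1b3, Flrt3 and Trappc6b windows lie beyond the 3′ end of the transcript described below, the Osbpl8 window in intron 1 and the Psap window in intron 14. Their GC content ran from 43.3% (Flrt3 and Trappc6b) to 56.2% (Psap).

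In the 6 gene windows together, 46 of 148 union regions were gained (31.1%) and 1 was lost (0.676%), beside 3.72% and 7.25% over all union regions. The genes were chosen for this contrast, and nothing is read from the excess. Of the rest, 50 regions were shared, 36 were called in cKO replicate 2 alone, 0 in cKO replicate 1 alone, and 15 in other combinations. The list of cKO replicate 2 was the longer of the pair, with 60884 peaks against 51955. The share of all union regions called in 1 cKO library alone was not computed, so nothing is read from this split. Peaks covered 38.5 and 44.8 kb of the windows in WT replicates 1 and 2, and 116.2 and 162.9 kb in cKO replicates 1 and 2. Both cKO libraries were above both WT libraries, although the cKO and WT lists covered like lengths of the genome as a whole (28.4 and 32.7 Mb against 31.0 and 35.2 Mb). The share of all protein-coding genes with this order was not computed. Since the genes were chosen on this contrast, nothing is read from the order here or at the single genes below. The number of peaks was 57 and 74 in WT, against 119 and 148 in the cKO libraries. The 46 gained regions made up 1.73% of all gained regions but 7.03% of all gained base pairs.

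**Figure D1:**
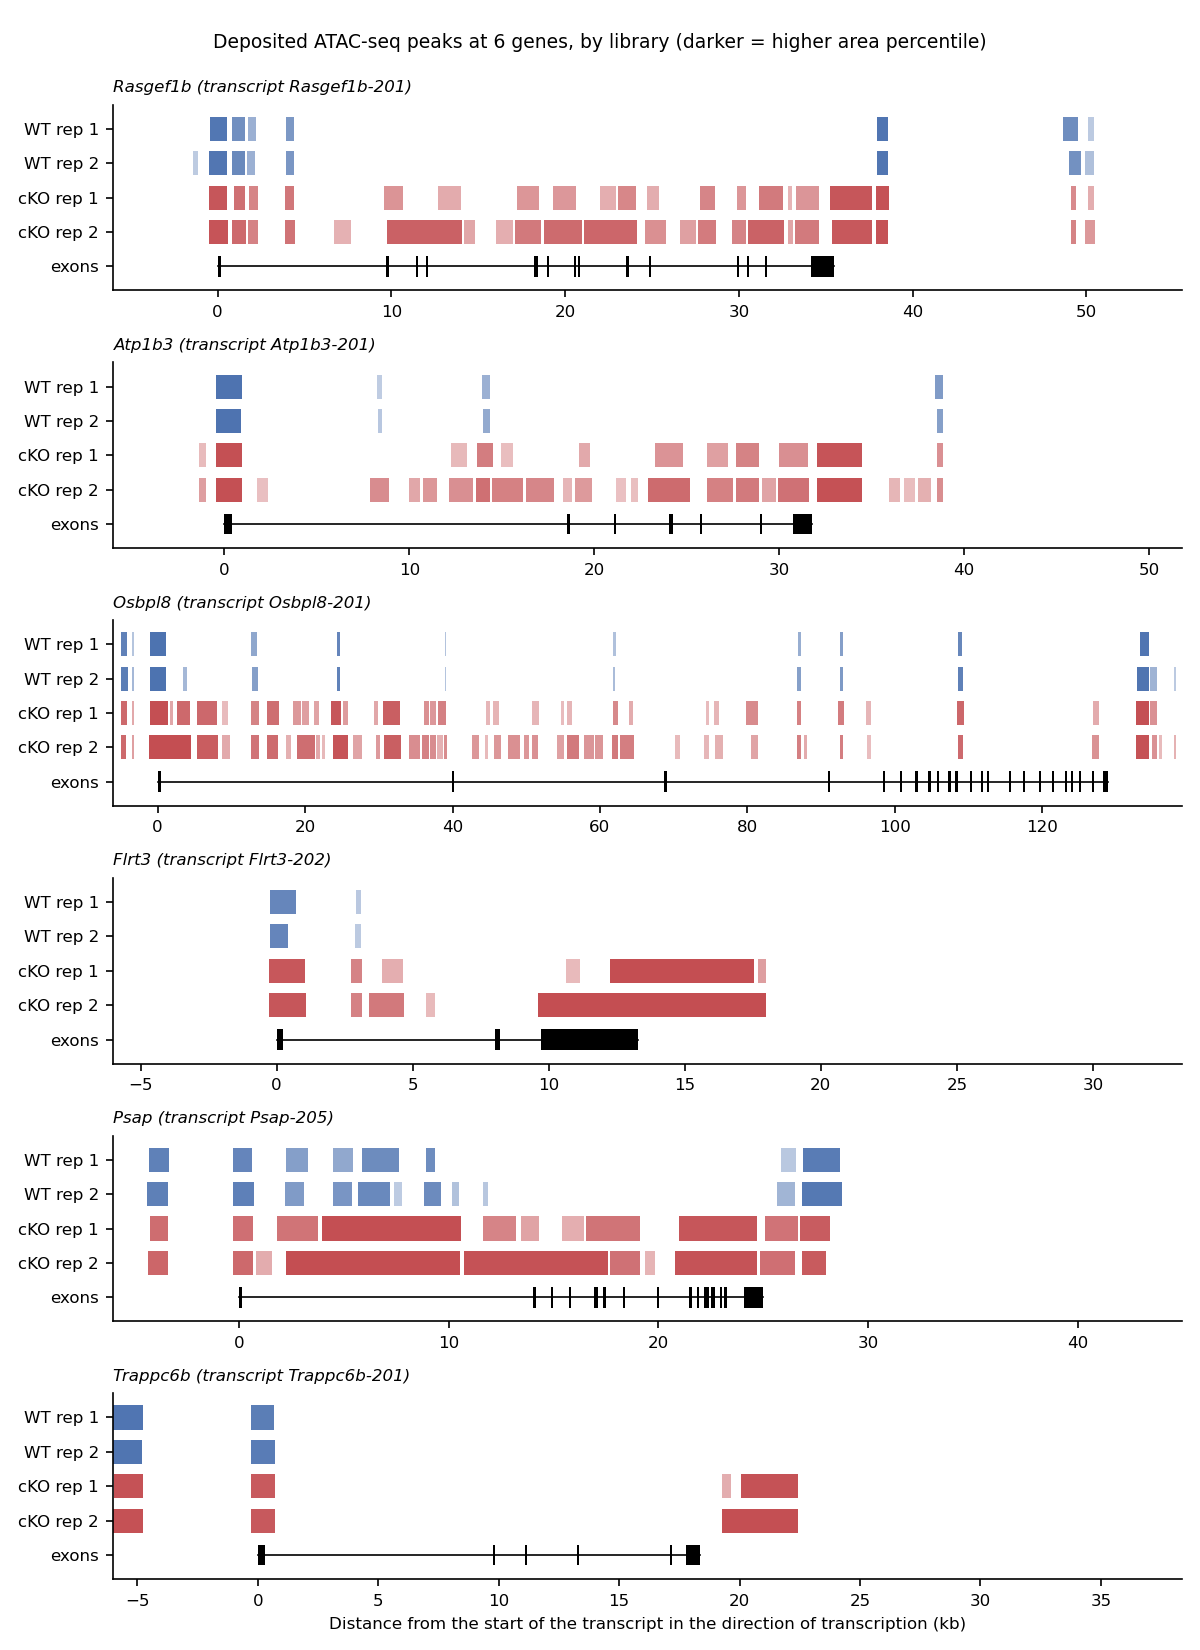
Deposited peaks of the 4 libraries at the 6 genes (blue, WT; red, cKO; darker colour, higher percentile of the peak area in its own list), with the exons of the main transcript in black. The horizontal axis is the distance in kb from the start of that transcript in the direction of transcription, to 20 kb past its end, or a shorter distance for Osbpl8. The cKO rows hold peaks over the 3′ part of Rasgef1b and Atp1b3, introns of Osbpl8, most of Psap and a stretch past the end of Trappc6b. The last exon of Flrt3 is covered whole in cKO replicate 2 and in part in cKO replicate 1. At these places the WT rows hold few, narrower or no peaks.

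Osbpl8 (ENSMUSG00000020189.14, chr10:111164752-111297249, plus strand) had the most gained regions of any protein-coding gene, 19 of 46 regions in its window. With lists of equal length it had 16 and Rasgef1b 18, and with peaks above the median area 4 and 5, so its place ahead of Rasgef1b was lost under both. Peaks covered 8.09 and 10.4 kb of the window in the WT libraries and 35.5 and 51.4 kb in the cKO libraries. The mean was 9.27 ± 1.66 kb in WT and 43.5 ± 11.3 kb in cKO (SD, n = 2 each), 4.69 times as much, and the groups did not overlap. All 19 gained regions lay inside the gene, 14 of them in its first 50%, and 18 touched no exon of the main transcript Osbpl8-201, the other reaching exon 22. Their widths ran from 607 to 3544 bp. The gained region that begins nearest to the start, chr10:111170178-111172991 (2814 bp), was at percentile 76.9 in cKO replicate 1 and 87.3 in cKO replicate 2. A region of 2521 bp further into intron 1, chr10:111195356-111197876, holds the window printed above, and was at 85.8 and 85.5. Others differed more between the cKO libraries. The widest, chr10:111183218-111186761 (3544 bp), also in intron 1, was at 35.5 and 72.4, and one of 1749 bp at chr10:111220275-111222023 was at 10.2 and 61.3. Another, chr10:111179585-111181289, holds the processed pseudogene Gm17849 and ranked at 72.4 and 74.8. A processed pseudogene is a copy of another gene, and ambiguous placement of reads there was not tested.

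The start of Osbpl8 was open in all 4 libraries, at percentiles 99.5 and 99.6 in WT, against 99.5 and 99.9 in the cKO libraries. The libraries differed there in width. The peak over the start was 2156 and 2174 bp wide in the WT libraries, 2332 bp in cKO replicate 1 and 5570 bp in cKO replicate 2, in which it ran on into intron 1. Of the 11 shared regions in the window, 6 ranked higher in both cKO libraries than in both WT libraries and 1 ranked lower. In an intronic shared region at chr10:111226427-111227274 the percentiles were 13.8 and 19.4 in WT, against 48.7 and 61.3 in the cKO libraries. In a further one at chr10:111202676-111203998, they were 11.5 and 9.82 in WT, against 56.8 and 46.3 in the cKO libraries. By contrast, the shared region that contains the start of the downstream gene Bbs10, a chaperonin-like protein of cilia, stood at 96.3 and 96.9 in WT, against 98.0 and 96.8 in the cKO libraries. The 1 lost region of the 6 windows, at the pseudogene Gm8873 upstream of Osbpl8, was weak, at percentiles 1.07 and 18.8 in WT.

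Rasgef1b (ENSMUSG00000089809.9, chr5:99217426-99729065, minus strand) has a gene model of 511.6 kb because of long isoforms, but the main transcript used here, Rasgef1b-201, spans chr5:99217426-99252927 with 14 exons. Of 57 regions in its window, 14 were gained and 24 shared. Peaks covered 12.6 and 15.7 kb in WT, against 28.2 and 40.5 kb in the cKO libraries, which gave means of 14.2 ± 2.15 and 34.4 ± 8.67 kb (SD, n = 2 each) and a ratio of 2.43. The groups did not overlap. The gained regions fell into 2 kinds. Those over Rasgef1b-201 lay across its 3′ part, covered 51.4% of the transcript and touched 13 of its 14 exons, by the full extent of the union regions. Peaks of cKO replicate 1 covered 52.5% to 100% of each of these regions, and peaks of cKO replicate 2 94.4% to 100%. The remaining 3, of 275, 266 and 312 bp, lay far upstream in introns of the longer isoforms and ranked no higher than 30.1 in cKO replicate 1 and 35.3 in cKO replicate 2.

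The strongest gained region of Rasgef1b was the one across its 3′ end, chr5:99215268-99217687 (2420 bp), which reached into exon 14 and was at percentiles 92.9 and 91.3 in the cKO libraries. It holds the printed window with the PU.1 motif. The widest was chr5:99238874-99243348, 4475 bp over exons 2 to 4, which was made of 2 peaks in cKO replicate 1 and of 1 peak in cKO replicate 2, at 39.3 and 82.8. Each gained region centred in the body of Rasgef1b-201 ranked higher in cKO replicate 2 by this percentile. The region of 2034 bp over exons 12 and 13 was at 62.0 and 82.6, and that of 2185 bp over exons 6 to 8 at 35.9 and 74.5. By area per bp the order of the cKO libraries was mixed. It was 0.440 and 0.399 in the widest region, against 0.324 and 0.586 in the one over exons 6 to 8. The start of Rasgef1b-201 was shared at like ranks, 94.4 and 95.1 in WT, against 93.3 and 95.0 in the cKO libraries.

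Atp1b3 (ENSMUSG00000032412.8, chr9:96332655-96364442, minus strand, 7 exons in Atp1b3-201) had 5 peaks in each WT library and 13 and 26 in the cKO libraries. The covered length was 2.79 and 2.52 kb in WT, against 13.2 and 24.8 kb in the cKO libraries. The means were 2.65 ± 0.192 and 19 ± 8.15 kb (SD, n = 2 each), a ratio of 7.17, with the cKO libraries apart from each other but both above WT. Of 25 regions, 9 were gained, 3 were shared and 11 were called in cKO replicate 2 alone. The strongest gained region lay outside the gene. It began 248 bp past the 3′ end, at chr9:96329969-96332406 (2438 bp), and ranked at 94.9 and 97.8. Within the body 6 gained regions of 870 to 2274 bp followed, 2 of them over exons (4 and 7), among them chr9:96339252-96341525 at 39.4 and 74.4. The remaining 2 lay upstream of the start and were narrow, 400 and 304 bp.

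The promoter of Atp1b3 was among the top peaks in all libraries, at percentiles 98.6 and 98.8 in WT, against 97.9 and 98.2 in the cKO libraries. An intronic region, chr9:96348292-96350840, rose from 32.1 and 38.8 in WT to 59.2 and 70.4 in cKO, and it was split into 2 peaks in each cKO library. The shared region downstream, chr9:96325586-96326010, stood at 54.6 and 49.9 in WT, against 42.2 and 44.7 in the cKO libraries. So of the 3 shared regions, the one inside the run was higher in the cKO libraries and the other two were lower.

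Flrt3 (ENSMUSG00000051379.12, chr2:140650914-140671469, minus strand) lies within Macrod2, a far longer gene on the opposite strand (chr2:140395309-142392966), and its main transcript, Flrt3-202, has 3 exons. Its window was almost closed in WT, where peaks covered 1.14 and 0.849 kb, against 8.65 and 11.8 kb in the cKO libraries. The means were 0.997 ± 0.209 and 10.2 ± 2.20 kb (SD, n = 2 each), with a ratio of 10.2. One region accounted for most of it. At chr2:140653469-140661856, 8388 bp were gained, the widest gained region of the whole series, made of 3 peaks in cKO replicate 1 and of 1 peak in cKO replicate 2. Its percentiles were 99.92 in cKO replicate 1 and 99.98 in cKO replicate 2. The peak of cKO replicate 2 spanned all 8388 bp and took in the whole of exon 3, which carries the coding sequence. The 3 peaks of cKO replicate 1 covered 6.16 kb, up to chr2:140660840, and left part of exon 3 without a call. In both libraries the peaks ran past the 3′ end of Flrt3-202. A second gained region, chr2:140666792-140668062 (1271 bp), lay in intron 1 at 15.98 and 62.7.

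At Flrt3 the start itself ranked higher in cKO, by a mean of 14.6 points. Trappc6b was the only other gene whose start ranked higher in both cKO libraries, by 2.25 points. The region at the start, chr2:140670392-140671754, was at percentiles 77.7 and 78.9 in WT, against 92.3 and 93.5 in the cKO libraries. The region next to it in intron 1, chr2:140668337-140668744, was at 5.40 and 3.19 in WT, against 53.7 and 55.2 in the cKO libraries. These are the only shared regions in the window, and the replicates lay close together in each genotype. Because the Flrt3 window overlaps Macrod2, the same regions made up 9.66 of the 10.8 kb of gained length counted for Macrod2.

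Psap (ENSMUSG00000004207.14, chr10:60277627-60302597, plus strand, 15 exons in Psap-205) was open in WT as well. Peaks covered 11.6 and 13 kb of its window in WT and 25.7 and 29.1 kb in cKO. The means were 12.3 ± 0.988 and 27.4 ± 2.37 kb (SD, n = 2 each), a ratio of 2.23, yet the number of peaks hardly differed, at 11 and 15 in WT, against 15 and 14 in the cKO libraries. The median peak width was 976 and 850 bp in WT, against 1054 and 999.5 bp in the cKO libraries. The widest peak differed more, at 1755 and 1922 bp in WT, against 6606 and 8313 bp in the cKO libraries. One region was gained by the rule, chr10:60298398-60302346 (3949 bp), which covered exons 9 to 15, stopped 251 bp before the 3′ end, and was at 93.3 and 95.9.

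The rest of the difference at Psap was in regions that WT also had. In chr10:60279430-60288193 (8764 bp), downstream of the start, WT had 4 and 6 separate peaks, the best of them at percentiles 71.7 and 74.5. The cKO libraries had 2 peaks and 1 peak there, the best at 99.7 and 99.9. The adjoining region chr10:60288352-60296738 (8387 bp) held 1 weak peak in WT replicate 2, at percentile 7.04, none in WT replicate 1, and peaks at 66.6 and 97.0 in the cKO libraries, so that the rule did not count it as gained. Past the 3′ end, where the convergent gene Cdh23 ends, chr10:60302466-60304271 stood at 5.87 and 26.9 in WT, against 67.2 and 70.9 in the cKO libraries. The start of Psap went the other way, from 78.9 and 84.5 in WT to 70.8 and 76.3 in cKO. Of the 8 shared regions in the window, 6 ranked lower in both cKO libraries, among them all 4 upstream of the gene, and the 2 that ranked higher were the ones in and just past the body.

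Trappc6b (ENSMUSG00000020993.9, chr12:59043092-59061472, minus strand, 6 exons in Trappc6b-201) had no gained region inside the gene. Its window held 3 regions, of which 1 was gained, chr12:59039045-59042192 (3148 bp). This region began 899 bp past the 3′ end and was at percentiles 96.6 and 99.3. It contains the small nuclear RNA gene Gm22973 (chr12:59040335-59040525), a class of gene with many copies, and ambiguous placement of reads there was not tested. Covered length was 2.26 and 2.28 kb in WT, against 4.91 and 5.41 kb in the cKO libraries. The means were 2.27 ± 0.0120 and 5.16 ± 0.354 kb (SD, n = 2 each), a ratio of 2.28. The start of Trappc6b was at 87.2 and 88.7 in WT, against 90.02 and 90.33 in the cKO libraries. The start of Pnn, a nuclear protein of splicing complexes encoded next to it, was at 96.5 and 97.1 in WT, against 96.7 and 97.4 in the cKO libraries, a gap within the spread of the replicates.

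**Figure D2:**
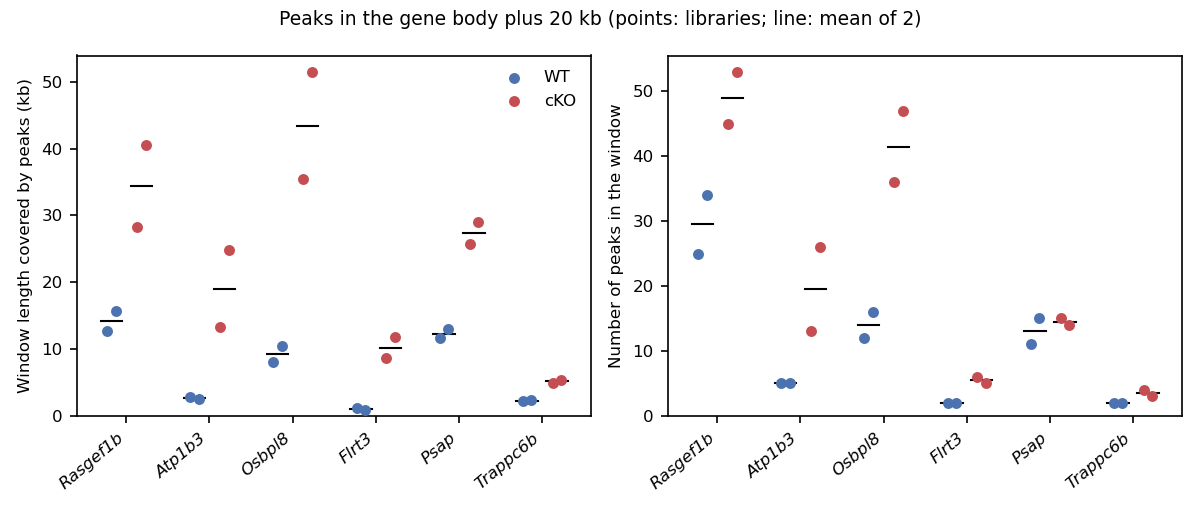
Window length covered by peaks (left, kb) and number of peaks (right) in the gene body plus 20 kb, for WT (blue) and cKO (red), each point a library and each black line the mean of 2. Covered length was higher in both cKO libraries than in both WT libraries at each of the 6 genes, while at Psap the numbers of peaks overlapped. The genes were chosen on this contrast, and the share of all genes with this order was not computed.

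Adjacent peaks were joined into chains where the gap to the next peak of the same library was at most 1 kb, a limit chosen after the peaks had been seen. The longest chain at Psap was 3.14 and 3.29 kb in WT, 8.76 kb in cKO replicate 1 and 28.3 kb in cKO replicate 2, where it ran over the whole gene. It ranked 12 of 45999 chains and 3 of 53195 chains in the respective cKO library. At Rasgef1b the chain was 2.65 and 3.53 kb in WT, against 8.72 and 22.6 kb in the cKO libraries, ranks 15 and 4. The WT chains lay at the start of Rasgef1b-201 and the cKO chains at its 3′ end. At Osbpl8 the spans were 2.16 and 2.78 kb in WT, against 10.6 and 10.9 kb in the cKO libraries (ranks 7 and 11), and at Atp1b3 1.37 kb in each WT library and 4.50 and 13.3 kb in cKO (ranks 112 and 7). At Flrt3 they were 0.955 and 0.654 kb in WT, against 5.76 and 8.39 kb in the cKO libraries (ranks 38 and 26). At both Atp1b3 and Flrt3 the WT chains lay at the start and the cKO chains at the 3′ end. At Osbpl8 the chain of WT replicate 2 lay at the start of Bbs10, and the other chains lay at the start of Osbpl8. Trappc6b had the shortest in cKO, 3.15 and 3.14 kb with ranks of 430 and 606, and 1.30 kb in each WT library. The WT chains in its window lay at the start of Pnn and the cKO chains past the 3′ end of Trappc6b. The cKO libraries differed from each other by more than 2 times at Psap, Rasgef1b and Atp1b3, and were close at Osbpl8 and Trappc6b.

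**Figure D3:**
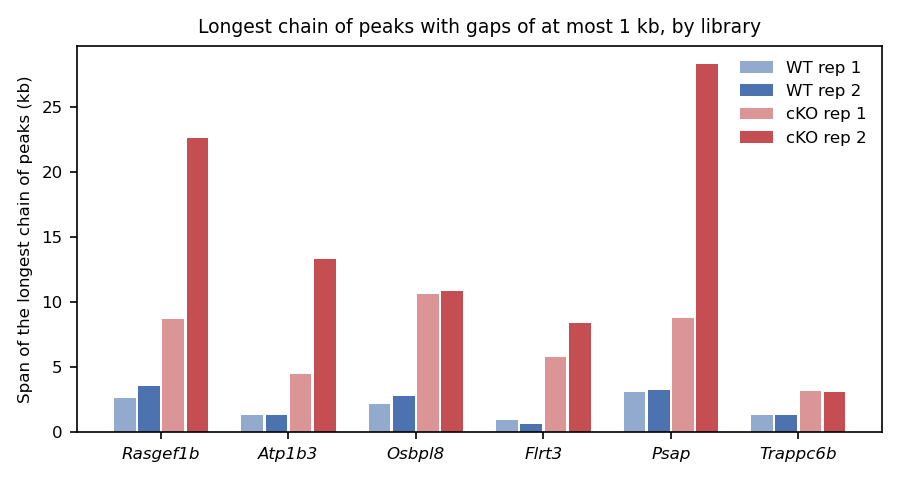
Span in kb of the longest chain of peaks with gaps of at most 1 kb at each gene, one bar per library. The bars of a gene can stand for chains at different places in its window. At all 6 genes, which were chosen on this contrast, both cKO bars are above both WT bars, and the tallest is cKO replicate 2 at Psap (28.3 kb). The share of all genes with this order was not computed.

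Over the 21951 protein-coding genes, 2332 (10.6%) had at least 1 gained region in the body plus 20 kb, 18 had at least 5 and 3 had at least 9. The 3 were Osbpl8, Rasgef1b and Atp1b3, ranked 1, 2 and 3 by number and also by gained length (26.6, 21.3 and 11.9 kb). Next outside them stood Ifi44l with 7 gained regions, then 2010111I01Rik, Gm20388, Resf1, Ifi44 and Vav3 with 6 each. Ifi44l and Ifi44, interferon-inducible neighbours, share part of their windows. By number Flrt3 ranked 107, and Psap and Trappc6b shared rank 403 with all other genes that had 1. By gained length they ranked 5 (9.66 kb), 20 (3.95 kb) and 33 (3.15 kb). These ranks describe how the genes came to be chosen.

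**Figure D4:**
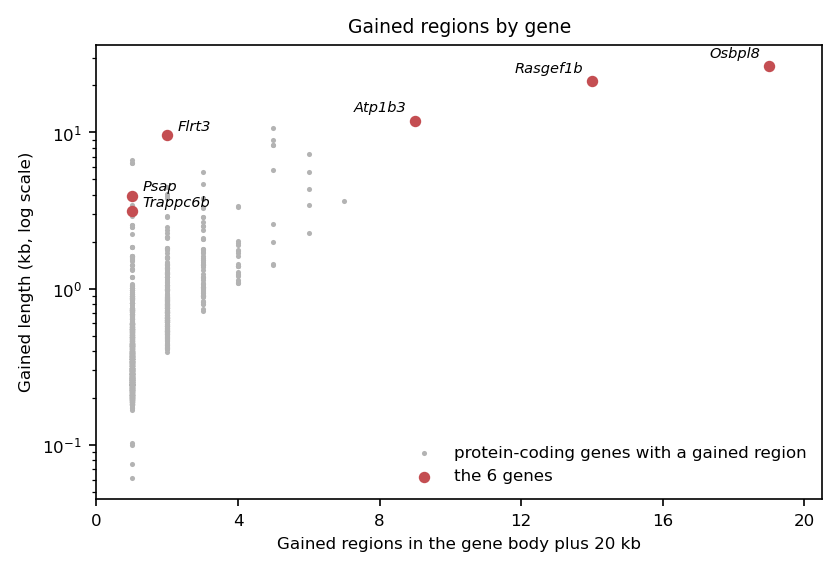
Gained regions in the gene body plus 20 kb (horizontal axis) against gained length in kb (vertical axis, log scale) for the 2332 protein-coding genes with at least 1 gained region, with the 6 genes in red. Osbpl8, Rasgef1b and Atp1b3 lie apart to the right at 19, 14 and 9 regions, while Flrt3, Psap and Trappc6b lie in the upper part of the columns for 2 and 1.

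Most gained regions of the 6 genes were wide, and most were low per base pair. Their median width was 1286 bp, against 309 bp over all 2653 gained regions, and 29 of 46 (63.0%) were at least 1 kb wide, against 97 of 2653 (3.66%). Of the 29 gained regions of at least 2 kb in the series, 13 belonged to the 6 genes, and no lost region was that wide. Median percentiles of the area were 32.8 in cKO replicate 1 and 55.4 in cKO replicate 2, against 13.7 and 25.2 over all gained regions. Area grows with width, and per base pair the order was the opposite. The median area per bp was 0.519 and 0.646 in the cKO libraries for peaks of the 6 genes and 1.03 and 1.21 for peaks of all gained regions. Osbpl8 and Rasgef1b hold most of the regions behind these medians, and 7 of 46 regions lay above the median of all gained regions in each cKO library. Among the 29 regions of at least 1 kb, 4 did so in cKO replicate 1 and 3 in cKO replicate 2. The 3 were the region past the end of Trappc6b (1.40 and 1.80 area per bp), the one past the end of Atp1b3 (1.19 and 1.75) and the 8388-bp region of Flrt3 (1.49 and 1.53). The fourth was the Rasgef1b region across its 3′ end, at 1.05 in cKO replicate 1 and 1.11 in cKO replicate 2. Most gained regions of at least 1 kb outside the 6 genes also lay below that median in cKO replicate 2, though some lay above it. The low area per bp thus went at least partly with width. No peak had an area below the floor near 200, so a narrow peak could not have an area per bp as low as a wide one could. The sets were not compared at like width, so it is not read as a trait of the 6 genes. The median −log10 p at the summit was 3.31 and 3.49 against 3.63 and 3.95, and in shared regions 5.02 and 5.53. The region ranked higher in cKO replicate 2 than in cKO replicate 1 in 41 of 46 cases (89.1%), against 83.6% of all gained regions. The summits of the pair of cKO libraries were a median of 63.5 bp apart, and in 26 of 46 regions at most 100 bp apart. This distance was not computed over all gained regions, so nothing is read from it. The members and the way they were chosen share these measurements, so the differences are given without a test.

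**Figure D5:**
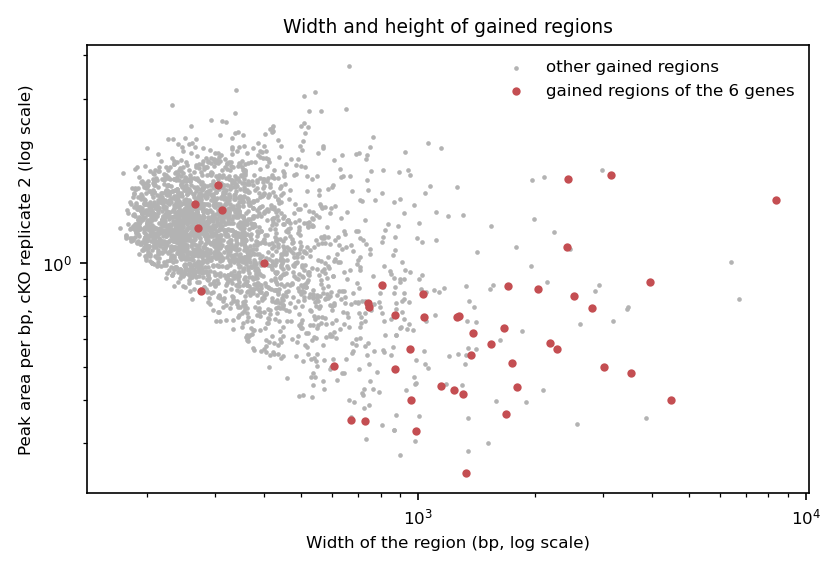
Width in bp (log scale) against peak area per bp in cKO replicate 2 (log scale) for the 46 gained regions of the 6 genes (red) and for the other gained regions (grey). Most red points lie to the right of and below the grey cloud, which has its bulk near 309 bp, and the widest point is the Flrt3 region of 8388 bp. The sets were not compared at like width.

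Relative to the main transcript, 37 of the 46 gained regions had their centre in its body, 5 upstream and 4 downstream. Of the 5, the 3 of Rasgef1b lie in introns of its longer isoforms. By overlap with the gene body over all isoforms, the count was 42 of 46. An exon of the main transcript was touched by 14, its 3′ end was spanned by 2 and its start by 0. The shares of all gained regions at these positions were not computed. All 6 genes had a gained region within 2 kb of the 3′ end of the main transcript, against 235 of 21864 genes with a main transcript (1.07%). The nearest edge lay at the end itself in Rasgef1b and Flrt3, 189 bp before it in Atp1b3, 251 bp before it in Psap, 1251 bp before it in Osbpl8 and 899 bp past it in Trappc6b. This measure was set after the positions had been seen, and the members were chosen for gained regions nearby, so nothing is read from the count. Within 2 kb of the start, 1 of the 6 genes (Atp1b3) had a gained region, against 237 of all (1.08%), while all 6 had a shared region there, against 11374 (52.0%). None of the 6 had a lost region at either end, where 286 (1.31%) and 437 (1.999%) of all genes had one at the 3′ end and at the start.

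The 50 shared regions of the windows were called in both genotypes, so that the choice of genes did not rest on them directly. Of these, 21 (42.0%) ranked higher in both cKO libraries than in both WT libraries and 17 (34.0%) ranked lower, against 22.2% and 35.1% of all 44820 shared regions. The median difference in percentile, cKO minus WT, was 0.52 points in the windows and −1.10 points over all. Rasgef1b, with 24 shared regions, had 9 higher and 8 lower, and Osbpl8 had 6 higher and 1 lower of 11. A shared region is also wider, and ranks higher, where it merges with a neighbouring stretch, as at Psap. The shared regions are therefore not free of the choice of genes, and nothing is read from their shares.

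Beyond the windows gained regions were narrow. In the 500 kb on either side of the 6 windows lay 259 union regions, of which 19 were gained (7.34%, against 3.72% of all union regions) and 14 lost (5.41%, against 7.25%), and the widest gained region was 571 bp, near Trappc6b. In these flanks the order of the genotypes was mixed. The covered length was lower in both cKO libraries than in both WT libraries beside Osbpl8 (33.7 and 38.6 kb in WT, 28.7 and 32.3 kb in cKO), Atp1b3 (26.8 and 30.5 kb, 22.1 and 26.0 kb) and Psap (24.1 and 26.4 kb, 21.2 and 23.9 kb). It overlapped beside Rasgef1b (9.36 and 10.3 kb, 10.01 and 11.4 kb), and was higher in cKO beside Trappc6b (9.51 and 9.82 kb, 10.9 and 12.3 kb) and, by a margin smaller than the spread of the replicates, Flrt3 (10.7 and 11.11 kb, 11.12 and 12.3 kb).

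No relative or partner of the 6 genes had more than 1 gained region. Of 56 genes in 6 lists, 9 had a gained region (16.1%, against 10.6% of all protein-coding genes) and 22 had at least 1 lost region (39.3%, against 20.8%). Both other members of the Rasgef1 family had 1 narrow gained region, of 0.312 kb at Rasgef1a and 0.251 kb at Rasgef1c, and neither had a lost one. Of 11 other sodium pump subunits, 3 had a gained region, and these were Fxyd5, Fxyd7 and Fxyd1, adjacent genes that shared a single one of 0.285 kb, while 3 subunits had a lost region. Among 11 other oxysterol-binding proteins, Osbp2 alone had a gained region, of 0.364 kb, and 8 had at least 1 lost region. Of 9 genes of the FLRT family and its receptors, Unc5c and Unc5a each had 1, and 4 had a lost region. Among 10 saposin partners, genes of lysosomal lipid breakdown and sorting, Gm2a had 1, of 0.335 kb, and 4 had a lost region. Of the 13 other TRAPP subunits, 0 had a gained region and 3 had a lost one.

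In sequence, the 201-bp summit windows of the 46 gained regions had the same median GC content as those of all gained regions, 46.8%, below 50.2% in shared regions. At least 50% of the window was repeat-masked in 6 of 46 (13.04%), against 11.04% of all gained and 3.59% of shared regions. The AP-1 motif TGANTCA, searched on both strands, was in 5 of 46 windows (10.9%), against 27.0% of all gained, 9.99% of lost, 17.4% of shared and 16.6% of all union regions. The AP-1 share at the 6 genes, from 5 windows, lay nearer to that of lost than of all gained regions. So did the shares of RUNX and of the interferon-stimulated response element given below, while those of PU.1 and C/EBP lay nearer to all gained regions. Each share rests on few windows. The PU.1 motif GAGGAAGT was in 2 (4.35%, against 8.97% of all gained and 12.8% of lost regions). The C/EBP motif TTGCNNAA was in 3 (6.52%, against 13.1% of all gained and 15.1% of lost regions). The RUNX motif AACCACA was in 3 (6.52%, against 12.6% of all gained and 7.38% of lost regions). The interferon-stimulated response element was in 0 of 46, against 1.81% of all gained and 1.41% of lost regions. None of the 5 motifs contains another, windows of 1 gene share their source, and a match does not show that a factor was bound.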

How the data were processed

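ATAC-seq peaks of 2 WT and 2 H3.3cKO BMDM libraries were analysed, with groups and replicate numbers taken from the sample titles. Per the labels and the study's methods, the authors aligned paired reads to mm10 with Bowtie2 2.5.1 and called peaks per library with Genrich at default settings. Read filters and duplicate removal are not given in the sources used here. The deposited signal value is the area of each peak, with a floor near 200 in each list, and the deposited −log10 p-value is that at the summit. The deposited score was at its limit of 1000 in 82.6% to 87.2% of peaks and was not used further, and the q-value column held no values. Peaks in a list were never closer than 101 bp.

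Union regions, classes and positions were computed in Python 3.11.15 (pandas 2.3.3, numpy 2.4.6), and the merging was tested on simulated regions and against bedtools 2.31.1. Gene bodies came from GENCODE vM21. The main transcript was the APPRIS principal one of the basic set, the longest where several were given. A region touched an exon with at least 1 bp. Where a library had several peaks in a region, the largest area gave its percentile. The named genes were the 6 members, their neighbours, the H3.3 genes and the other genes with the most gained regions. The members, the partner and marker lists and the measures were chosen with earlier results of these data known, so genotypes were compared by description and no test was run. Read depth is unknown, so no counting interval could be given. Alternatives were another threshold on the area, lists of equal length, 50% cover for a call, other flanks, joining distances, leaving out each library, and differences within replicate numbers.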

Additional observations from a re-analysis of the deposited data

How the results depend on the processing

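Under each alternative for which the values were computed, the 6 windows held more gained than lost regions, and covered length and peak number were higher in cKO. With peaks above the median area of their list, the 46 gained regions fell to 18, the gained length of 76.5 kb to 49.0 kb, the difference in covered length of 97.9 kb (cKO minus WT, means) to 63.5 kb, and the difference of 68 peaks to 25. With peaks joined within 500 bp or 1000 bp, distances chosen after seeing the data, 27 and 14 gained regions were left, so the number of regions in a run depends on the joining distance. Leaving out 1 library gave 46 to 86 gained regions, 64.95 to 102.2 kb of gained length, covered-length differences of 74.6 to 121.3 kb and peak differences of 53.5 to 82.5. The 86 came without cKO replicate 1, when Rasgef1b had 24, Osbpl8 33, Atp1b3 21 and Psap 4. The 1 lost region became 0 with peaks above the median, with lists of equal length and with the gene body alone, 3 with 50% cover and 4 with 50-kb flanks, and it ranged from 1 to 5 when 1 library was left out (5 without WT replicate 1, 4 without cKO replicate 2). By gene, 51 of 66 recomputed counts stayed within 1.5 times the value given and 15 did not, and under other gaps 8 of 12 differences in chain span (cKO minus WT) moved by less than the spread between replicates.

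No test was run within the pairs of replicate numbers, since the genes were chosen on this contrast. As a description, with the replicate block the covered-length difference was 77.7 kb within replicate number 1 and 118.1 kb within number 2, and the peak difference 62 and 74. Peaks below the floor of the area are missing from a list, so a region counted as gained may have been open below that floor in WT.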
